A study of Mus musculus with 12 samples.

Results

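Adcy10 encodes soluble adenylyl cyclase, a bicarbonate-activated enzyme that makes cyclic AMP (cAMP) inside the cell. The data described here come from CD4 T cells of Adcy10-/- mice and compare cells given polarizing cytokines with cells kept in baseline medium, 3 RNA-seq libraries in each medium, chosen by genotype from the 12 libraries of the study. The other 6 libraries are the same 2 media in wild type (WT) cells and serve here only as a reference. Genes were kept when they reached 1 FPKM (a read density scaled to transcript length and to the mapped fragments of the library) in at least 3 of the 6 Adcy10-/- libraries, which left 9901 of the 23991 gene names in the files.

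All animals were male C57BL/6 mice of 8 to 10 weeks, and the cells were taken from spleens or lymph nodes and enriched for CD4 by magnetic negative selection. The protocol describes 18 h of culture on plates coated with anti-CD3 at 10 µg/mL, with anti-CD28 at 2 µg/mL, IL-1β at 20 ng/mL, IL-6 at 25 ng/mL and IL-23 at 20 ng/mL, and with blocking antibodies to IFNγ and IL-4 at 1 µg/mL each. The sample labels call the groups baseline media, and baseline media with polarizing cytokines added, but do not say which of these agents the baseline medium held. They also do not say whether the replicates were separate animals, so the p-values measure the spread between these libraries, which may be technical. Cells in both media carried the deletion, and the labels give no detail of how the allele was made.

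As background, IL-6 acts through gp130 and the kinases JAK1, JAK2 and TYK2 to phosphorylate STAT3. With IL-1β and IL-23 it drives activated CD4 T cells to the Th17 state, which is marked by the cytokines IL-17A, IL-17F, IL-21 and IL-22. Th17 cells are known for their part in mucosal defence and in psoriasis. Interferon γ acts in part through IRF1, and it raises the genes of antigen presentation and a large family of GTPases that act against intracellular microbes.

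The value of Adcy10 was 0 FPKM throughout, in WT as in Adcy10-/- cells, so the transcript offers no check of the genotype labels. The CD4 T cell markers summed to 1787 to 2136 FPKM in the 6 libraries. All 10 were tested, and 1 was called higher (Cd5) and 1 lower (Cd4), or 1 higher and 2 lower with the block. Total FPKM ran from 547870 to 574610, and the depth in reads is unknown from such values. Log2 profiles correlated at 0.991 to 0.995 within a medium and at 0.982 to 0.993 between media (Pearson's r across genes, which are not independent replicates). Libraries with the same replicate number deviated together from their group means, so the counts were also taken from a fit in which the number is a block. Markers of other cells followed the number: the B cell list summed to 13.9, 46.5 and 57.8 FPKM at baseline and to 7.72, 33.5 and 41.8 FPKM with cytokines (8 of its 10 genes tested, 0 called, and 1 higher and 3 lower with the block), and the dendritic cell list to 73.7, 154 and 187 FPKM and to 46.7, 127 and 159.6 FPKM (3 of 9 tested, 0 called, and 1 lower with the block, Siglech at 0 in all 6). The red cell list summed to 193 and 126 FPKM in the libraries numbered 3 and to under 3 FPKM in the other 4 (2 of 6 tested, 0 called, and 1 lower with the block). The macrophage and monocyte list summed to 16.3 to 21.7 FPKM at baseline and 22.7 to 29.4 FPKM with cytokines (2 of 8 tested, 0 called, and 1 higher with the block), and the neutrophil list to 1.21 to 6.06 and 0.911 to 17.9 FPKM (2 of 6 tested, 0 called, and 1 higher with the block). The stromal list summed to 15.9 to 27.7 and 13.3 to 19.9 FPKM (1 of 6 tested, 0 called, and 1 lower with the block). No member of the mast cell and basophil list, at 2.24 to 4.04 and 1.97 to 2.6 FPKM, or of the gamma delta T cell list, under 0.17 FPKM, passed the filter to be tested. The part of these cells in the results below was not tested, and in bulk RNA a change in the number of cells of a type cannot be told apart from a change in RNA per cell.

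The cytokines changed 433 genes in Adcy10-/- cells, 217 higher and 216 lower, at an adjusted p under 0.05 (limma on log2(FPKM + 1), Benjamini-Hochberg over the 9901 genes). This is 4.37% of the genes tested, 2.19% higher and 2.18% lower. Most changes were small: 249 of the 433 were under 1.5-fold on that scale, while 43 rose and 26 fell by at least 2-fold. In all 433 the groups did not overlap, against 21.5% of all genes tested, and all 433 moved the same way in each of the 3 number pairs, against 49.4%. The 433 were chosen by a test of these same libraries, and groups that do not overlap must move the same way in each pair. Both counts were thus largely set by the choice and are a description. With the replicate number as a block the count was 1218 (554 higher, 5.60%, and 664 lower, 6.71%, in all 12.3% of the genes tested), and it held all 433. The shares of 4.37%, and 12.3% with the block, are the reference for the counts of gene lists below. Leaving out 1 library at a time moved the count between 199 and 408. It was 199 without baseline 1, 209 without baseline 3, 217 without cytokines 1, 290 without cytokines 2 and 265 without cytokines 3, and 170 of the 433 passed in each of the 6 fits.

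**Figure D1:**
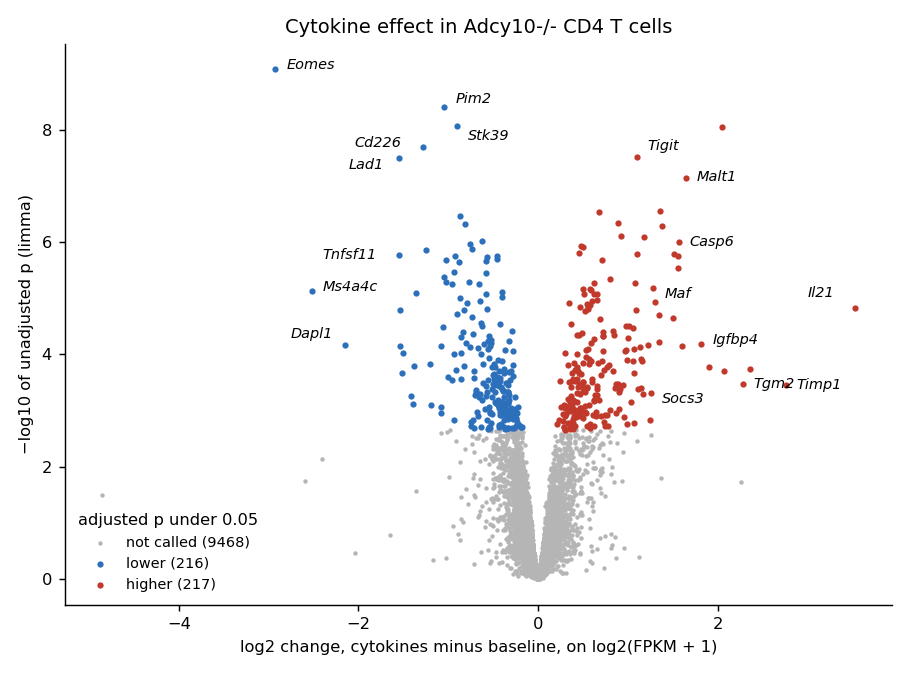
Each point is 1 of 9901 genes in Adcy10-/- cells. The horizontal axis gives the log2 change with cytokines on log2(FPKM + 1) and the vertical axis the −log10 of the unadjusted limma p. Red genes (217) were higher and blue genes (216) lower at an adjusted p under 0.05. Il21 lies farthest right among the called genes, and Eomes is both the farthest left among the called genes and the one with the smallest p.

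Among the Th17 cytokine genes, Il21 and Il10 rose, and Il17a and Il22 did not pass the test. Il21, which encodes a cytokine that acts back on Th17 cells and on B cells, was at 1.84, 9.98 and 6.11 FPKM in baseline replicates 1, 2 and 3 and at 62.5, 73.7 and 70.8 FPKM with cytokines. The groups were far apart, with a log2 change of 3.53 (SE 0.49, adjusted p = 0.00205). Il10, an anti-inflammatory cytokine, went from 2.42, 2.81 and 2.79 FPKM to 4.94, 7.65 and 6.97 FPKM, with a log2 change of 1.02 (SE 0.15, adjusted p = 0.00349). The cytokine library numbered 1 had the lowest Il10 of its group and was still above every baseline library.

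Il17f, which encodes the close relative of IL-17A, was at 2.39, 21.4 and 27.9 FPKM at baseline and at 55.7, 55.5 and 73.8 FPKM with cytokines. Its groups did not overlap, but baseline replicate 1 stood far under the other baseline libraries, and the log2 change of 2.26 had an SE of 0.82 and an adjusted p of 0.183. With the replicate block Il17f passed, at 0.0222. Il17a was at 11.6, 26.5 and 52.7 FPKM at baseline and at 30.5, 34.9 and 63.2 FPKM with cytokines, so the groups overlapped, although each cytokine library lay above the baseline library of its own number. The log2 change of Il17a was 0.65 (SE 0.59, adjusted p = 0.723, and 0.153 with the block). Il22, which acts on epithelial cells, was at 18.4, 82.3 and 113 FPKM and 103, 81.7 and 125 FPKM, and its difference lay almost wholly in the pair numbered 1 (a change of 0.85 in log2, SE 0.59, adjusted p = 0.598, and 0.269 with the block). These intervals are wide: the 95% interval of the log2 change was -0.64 to 1.95 for Il17a and -0.44 to 2.15 for Il22.

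Il2, Il9 and Ifng passed only in the fit with the block. Il2, the T cell growth factor, was at 9.1, 19.4 and 16.5 FPKM at baseline and at 20.8, 33.2 and 33.7 FPKM with cytokines (adjusted p = 0.0854, and 0.00186 with the block). Il9 was at 3.28, 18.5 and 20.4 FPKM and 2.19, 3.45 and 6.4 FPKM and was lower in each pair (adjusted p = 0.231, and 0.0101 with the block). Ifng, the gene of interferon γ and the leading Th1 cytokine, was lower in each pair, at 33.1, 122 and 77.7 FPKM against 21.8, 61.8 and 35.4 FPKM, but the libraries numbered 1 were the lowest in both media and the groups overlapped. Its adjusted p was 0.576 and 0.0203 with the block. Csf2, the gene of GM-CSF, passed in neither fit, at 2.96, 4.75 and 4.55 FPKM and 4.59, 2.19 and 3.17 FPKM (log2 change -0.26, SE 0.19, adjusted p = 0.634). Of the 10 Th17 cytokine genes tested, from a list of 11, 2 rose and 0 fell, or 4 rose and 2 fell with the block, and the median log2 change was 0.52 against -0.02 over all genes tested.

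**Figure D2:**
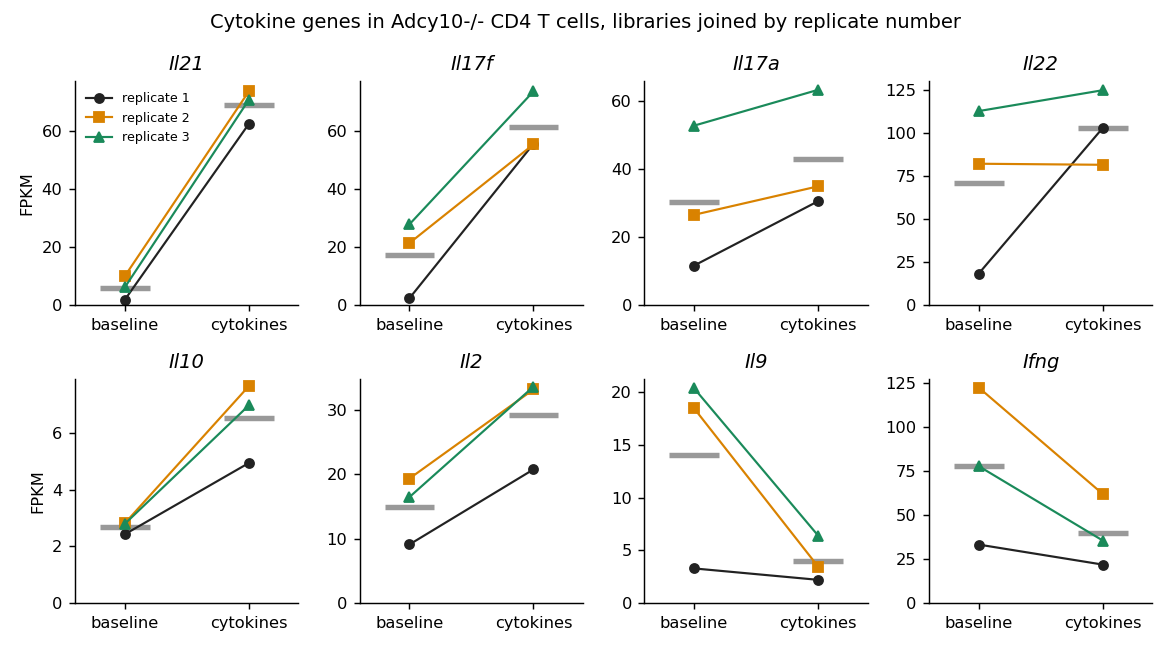
FPKM of 8 cytokine genes in the 6 Adcy10-/- libraries, each panel with its own axis from 0. Lines join libraries with the same replicate number and grey bars are group means (n = 3). Replicate 1 was the lowest baseline library in all 8 panels, the Il21 and Il10 groups did not overlap, and the 3 lines for Il9 and Ifng fell from different heights.

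Of 16 transcription factor genes tested from the Th17 list, 4 rose and 0 fell (9 and 1 with the block, the 1 being Zbtb32, at 0.304 and 0.00269), with a median log2 change of 0.55. Maf, which promotes Il21 and Il10 transcription, was at 1.91, 2.95 and 2.28 FPKM and 6.83, 8.4 and 6.41 FPKM (log2 change 1.28, SE 0.16, adjusted p = 0.00134). Fosl2, an AP-1 member, rose from a mean of 7.22 to 15 FPKM (adjusted p = 0.00864).

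Satb1, a chromatin organizer, rose from a mean of 93.4 ± 19.5 to 168 ± 16.4 FPKM (SD, n = 3; adjusted p = 0.0169), and Hif1a, the oxygen-sensing factor that also acts in Th17 cells, from 87.8 ± 18 to 141 ± 9.11 FPKM (adjusted p = 0.0333). Hif1a lost the call without any 1 library but baseline 2 (adjusted p up to 0.121) and Satb1 lost the call without baseline 1, cytokines 1 or cytokines 3 (adjusted p up to 0.0701). Batf, the AP-1 partner of IRF4, was at 63.3, 124 and 115 FPKM at baseline and 176, 195 and 198 FPKM with cytokines, with baseline replicate 1 again the lowest. Batf missed the threshold narrowly (adjusted p = 0.0537) and passed with the block (adjusted p = 0.00478), as did Ahr, the aryl hydrocarbon receptor, at 0.112 and 0.00318. Ahr was low in every library, at 0.429, 1.17 and 0.918 FPKM and 1.48, 2.03 and 1.85 FPKM. Stat3 passed in neither fit, at 57, 72.9 and 72.1 FPKM and 75.2, 72.4 and 79.5 FPKM (a change of 0.17 in log2, SE 0.11, adjusted p = 0.537), and neither did Irf4, at 136, 136 and 139.7 FPKM and 137, 152 and 149.9 FPKM (adjusted p = 0.795). Rora, a nuclear receptor gene, lay under the filter, at 0.462 to 0.624 FPKM at baseline and 0.806 to 0.913 FPKM with cytokines, and was not tested.

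None of the receptor chains for IL-6, and not the IL-12Rβ1 chain of the IL-23 receptor, passed the test. Il6ra, the IL-6 binding chain, was at 12.4, 9.8 and 11.6 FPKM and 14, 8.85 and 14.6 FPKM (a change of 0.11 in log2, SE 0.16, adjusted p = 0.860), and Il6st, the gene of gp130, at 18.1, 13.5 and 15.2 FPKM and 14.6, 10.6 and 14.6 FPKM (log2 change -0.22, SE 0.15, adjusted p = 0.580). Il12rb1, the chain shared by the IL-12 and IL-23 receptors, passed in neither fit (log2 change 0.30, SE 0.19, adjusted p = 0.560). Il23r and Il1r1 lay under the filter: Il23r at 0.371 to 0.457 FPKM at baseline and 0.506 to 0.765 FPKM with cytokines, and Il1r1 at 0.161 to 0.583 and 0.896 to 1.33 FPKM, so that the 2 media did not overlap for either gene at these low levels.

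Il1rn, which encodes the IL-1 receptor antagonist, rose most among these genes, from 0.421, 2.72 and 1.56 FPKM to 6.49, 11.5 and 9.65 FPKM (log2 change 2.07, SE 0.39, adjusted p = 0.0112). Il1r2, the decoy IL-1 receptor, passed with the block, at 3.48, 9.4 and 6.47 FPKM and 7.66, 13.6 and 11.9 FPKM (adjusted p = 0.262, and 0.00190 with the block). Il21r, the receptor for IL-21, rose from 83.3 ± 18.6 to 144 ± 22.8 FPKM (SD, n = 3; adjusted p = 0.0300), and of the kinases Jak2 rose from 39.4 ± 4.43 to 60.1 ± 2.47 FPKM (adjusted p = 0.0138) and Jak3 from 50.1 ± 6.14 to 66 ± 3.25 FPKM (adjusted p = 0.0244). Il21r and Jak3 lost the call without any 1 library but baseline 2 or cytokines 2 (adjusted p up to 0.123 and 0.100) and Jak2 lost the call without baseline 1, baseline 3 or cytokines 3 (adjusted p up to 0.0640). Jak1 passed in neither fit (log2 change -0.10, adjusted p = 0.734). Of 18 receptors and signaling genes tested, from a list of 24, 4 rose and 0 fell (5 and 1 with the block, the 1 being the kinase gene Tyk2, at 0.0950 and 0.0272), and the median log2 change was 0.06.

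Of the genes known as targets of STAT3, 5 rose and Pim2 fell. Socs3, the feedback inhibitor of gp130 signaling, was at 21.1, 36.3 and 30 FPKM at baseline and at 97.6, 52.3 and 65.4 FPKM with cytokines (log2 change 1.26, SE 0.26, adjusted p = 0.0189). Bcl6, a transcriptional repressor of follicular helper cells, was at 3.41, 2.78 and 2.63 FPKM and 5.0, 4.86 and 4.29 FPKM (a change of 0.54 in log2, SE 0.11, adjusted p = 0.0166), and Il4ra, the IL-4 receptor chain, rose from 66.6 ± 8.71 to 125 ± 33.3 FPKM (SD, n = 3; adjusted p = 0.0316). Il4ra lost the call without any 1 library but cytokines 2 (adjusted p up to 0.131) and Socs3 lost the call without any 1 library but baseline 2 or cytokines 2 (adjusted p up to 0.0822). Bcl6 lost the call without any 1 library but baseline 1 or cytokines 3 (adjusted p up to 0.0757). Socs1, a feedback inhibitor of JAK kinases, and Bcl3, an atypical IκB protein, passed with the block only (Socs1 adjusted p = 0.0661 and 0.0243, Bcl3 0.0556 and 0.0462). Pim2, which encodes a survival kinase, fell from 208, 195 and 228 FPKM to 101, 99 and 104 FPKM, a log2 change of -1.04 (SE 0.07, adjusted p = 1.97e-05). Of 21 tested members 5 rose and 1 fell (10 and 1 with the block), and the median log2 change was 0.24.

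The letters TTCNNNGAA, the palindromic core that STAT dimers recognise and so the same on both strands, were searched in the 250 bases before the transcription start in the RefSeq promoter table (build GRCm38.p6, not the build of the expression files). At least 1 copy stood in 3 of 6 windows (50%) of the JAK-STAT3 targets that rose, in 6.22% of 225 windows of all genes that rose, in 8.29% of 205 windows of genes that fell, and in 6.08% of 9578 windows of the 7543 tested genes that matched the table. The same letters stood in 7 of 17 windows (41.2%) of the interferon-inducible genes that fell, from the list described further on. Of all those tested from that list, 12 of 43 windows (27.9%) held them. The JAK-STAT3 list was drawn up from known STAT3 targets and its 6 windows are of 5 genes, so the share is a description of the list. Bcl6 had the most copies of the 5 list members that rose, and for that reason the window of its start with 3 copies is shown, 5′ to 3′ on the minus strand at chr16:23981284-23981533, with the 3 copies in capitals.
Bcl6: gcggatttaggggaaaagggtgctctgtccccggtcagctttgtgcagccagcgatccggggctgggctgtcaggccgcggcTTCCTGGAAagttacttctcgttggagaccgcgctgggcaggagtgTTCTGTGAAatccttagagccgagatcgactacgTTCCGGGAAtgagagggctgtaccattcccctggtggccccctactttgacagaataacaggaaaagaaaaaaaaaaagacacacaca
The copies begin 168, 122 and 88 bases before the start. A match of letters is a description and does not show that STAT3 is bound there.

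Outside these lists, the largest rises were in genes of several functions. Timp1, an inhibitor of matrix metalloproteinases, was at 0.205, 5.24 and 2.48 FPKM at baseline and 15.9, 25.7 and 17.1 FPKM with cytokines (a change of 2.76 in log2, SE 0.55, adjusted p = 0.0159), and Tgm2, transglutaminase 2, at 0.73, 3.36 and 2.48 FPKM and 16.2, 9.49 and 15.7 FPKM (log2 change 2.28, SE 0.45, adjusted p = 0.0153). Baseline replicate 1 was the lowest library for both. Tgm2 lost the call without baseline 1, cytokines 1 or cytokines 3 (adjusted p up to 0.0670) and Timp1 lost the call without cytokines 2 (adjusted p up to 0.0609). Igfbp4, a binding protein of insulin-like growth factors, gained the most FPKM of all called genes, from 109, 222 and 189 FPKM to 863, 419 and 563 FPKM, with the highest value in cytokine replicate 1 (adjusted p = 0.00571).

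Malt1, the paracaspase of the NF-κB pathway, rose with little spread between replicates, from 19.8, 28.8 and 25 FPKM to 80.2, 77.2 and 76.6 FPKM (log2 change 1.64, SE 0.14, adjusted p = 8.84e-05). Casp6, an effector caspase, went from 12.9, 14.8 and 14.7 FPKM to 47.2, 39.9 and 44.8 FPKM (log2 change 1.57, SE 0.17, adjusted p = 5.60e-04). Both genes passed in each of the 6 leave-one-out fits. Further genes among the 15 largest rises were Smim3 (log2 change 1.55), Frmd4b (1.51), Gstm1, a glutathione transferase (1.38), Itga3, an integrin chain (1.36), and Ifitm3, an antiviral membrane protein (1.35). Ifitm3 rose, at 11, 17.1 and 11.2 FPKM and 28.1, 44.8 and 31.7 FPKM, whereas 18 of the 46 interferon-stimulated genes tested from the list described further on fell and 0 rose.

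A few genes crossed 1 FPKM. Serpinf1, a secreted serpin, went from 0.45, 0.721 and 0.372 FPKM to 3.0, 4.1 and 2.93 FPKM, and Gzma, granzyme A, rose from 0.104, 1.08 and 1.28 FPKM to 4.54, 5.59 and 6.55 FPKM (log2 change 1.90, SE 0.35, adjusted p = 0.0101). Muc1, a membrane mucin, rose from a mean of 0.966 to 3.18 FPKM and Lsr from 0.96 to 2.25 FPKM, and Slpi, an antiprotease, went from 0.77 to 2.05 FPKM. In the other direction Gm14446 went from 4.35, 2.54 and 2.72 FPKM to 0.478, 0.345 and 0.561 FPKM, and Cd160 and Tnfsf4 fell to means of 0.963 and 0.961 FPKM. Serpinf1, Slpi and Gm14446 were under 1 FPKM in all 3 libraries of the lower group, so they met the filter only through the group where they were high and had to differ, and no p is given for them. The same limit holds for 12 of the 217 genes called higher and 5 of the 216 called lower. 

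The T-box factor Eomes, which drives effector and memory programs in cytotoxic and Th1 cells, fell more than any other called gene. It was at 30.2, 20.2 and 26.6 FPKM at baseline and at 2.01, 2.48 and 3.01 FPKM with cytokines, a log2 change of -2.92 (SE 0.16, adjusted p = 8.44e-06), and every cytokine library was well under every baseline library. The CD8 T cell marker list summed to 22.1 to 27.4 FPKM at baseline and to 16.8 to 21.1 FPKM with cytokines (3 of 3 tested, 1 called lower), and the NK cell list to 3.07 to 4.86 and 4.08 to 6.28 FPKM (1 of 6 tested, 0 called), and their part in these genes was not tested. Tbx21, the gene of its relative T-bet, showed no such separation, at 14.5, 31.9 and 27 FPKM and 15.1, 23.8 and 24.6 FPKM (log2 change -0.16, SE 0.42, adjusted p = 0.941). Stat4, which carries IL-12 signals, fell from 37.3, 29.9 and 31.4 FPKM to 18.6, 19.4 and 19.8 FPKM (adjusted p = 0.00264), Fasl, the death ligand, from 7.04, 4.25 and 5.22 FPKM to 0.819, 1.55 and 1.32 FPKM (adjusted p = 0.00213) and Xcl1, a chemokine, from 31.1, 27.5 and 32.3 FPKM to 9.18, 13.6 and 15.9 FPKM (adjusted p = 0.00948).

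Other members of the Th1 and cytotoxic list rose. Besides Gzma, Srgn, the proteoglycan of secretory granules, went from 596, 595 and 542 FPKM to 839, 935 and 779.8 FPKM (log2 change 0.56, SE 0.08, adjusted p = 0.00201), Cxcr3 from a mean of 11.4 to 18.2 FPKM and Ctsw from 6.29 to 9.39 FPKM. Cxcr3 and Stat6 lost the call without any 1 library but baseline 2 (adjusted p up to 0.136 and 0.176) and Ctsw lost the call without baseline 1 (adjusted p up to 0.0694). Of 22 members tested 4 rose and 5 fell (6 and 7 with the block), and the median log2 change was 0.14. Of 10 Th2 genes tested 2 rose and 1, Stat6, fell by 0.19 on the log2 scale (5 and 3 with the block), and Gata3, the leading Th2 factor, passed in neither fit, at 14.6, 13.3 and 14.1 FPKM and 13.7, 11 and 14 FPKM (adjusted p = 0.773). Ecm1, an extracellular matrix protein known from Th2 cells, rose from 48.2, 59.8 and 51.6 FPKM to 124, 89.5 and 105 FPKM (adjusted p = 0.00645).

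Of 46 interferon-inducible genes tested, from a list of 55, 18 fell and 0 rose (24 and 0 with the block). The list was written with earlier results of these data known. It holds Ms4a4b, Ms4a4c, Mndal and Ifi203 but not Ifitm3, which rose, so the count of 0 depends on its membership. The median log2 change of the list was -0.32, against -0.02 over all genes, and 11 of the 46 (23.9%) lay above 0, against 42.2% of all genes tested. Irf1, a transcription factor induced by interferons, was at 163, 148 and 146 FPKM at baseline and 98.7, 104 and 105 FPKM with cytokines (log2 change -0.57, SE 0.06, adjusted p = 5.92e-04). The immunity-related GTPase Igtp was at 216, 231 and 230.3 FPKM and 142, 158 and 154 FPKM (adjusted p = 8.95e-04), Irgm1 at 70.2, 79.1 and 77.6 FPKM and 32.8, 44.3 and 43 FPKM (adjusted p = 0.0109), and the guanylate binding protein gene Gbp6 at 14.4, 15.9 and 14.1 FPKM and 6.13, 7.94 and 7.41 FPKM (adjusted p = 0.00119). In each of these genes the 3 cytokine libraries lay under all baseline libraries, and the groups of all 433 called genes did not overlap. Ifi47, also a GTPase gene, fell from a mean of 232 to 149.7 FPKM, and Tgtp1 and Tgtp2 from 54.4 to 30.6 and from 45.5 to 24.5 FPKM, but these last 2 are near-identical copies whose reads the authors' counting may have split. Rsad2, Mx1 and Oasl2, genes known for strong induction by type I interferon, lay under the filter at no more than 0.534 FPKM in any of the 6 libraries. Rsad2 was higher with cytokines at this low level, at 0.0517 to 0.0815 FPKM at baseline and 0.119 to 0.153 FPKM with cytokines. Isg15, Ifit3 and Irf7 of the same list passed the filter and were tested.

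The largest falls of the list were in Ms4a4c, a membrane protein of the MS4A family, at 38.1, 21.4 and 22.4 FPKM and 3.37, 4.66 and 3.39 FPKM (a change of -2.52 in log2, SE 0.33, adjusted p = 0.00140), and in 2 DNA-sensing family genes, Mndal (log2 change -1.54, adjusted p = 0.00591) and Ifi203 (log2 change -1.38, adjusted p = 0.00979). Ms4a4b fell from 438, 242 and 292 FPKM to 146, 104 and 110.3 FPKM (adjusted p = 0.0255). For all 4 genes baseline replicate 1 was the highest library. Ms4a4b lost the call without any 1 library but baseline 2 or cytokines 1 (adjusted p up to 0.104). These families hold close copies, so reads could have been divided between members.

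**Figure D3:**
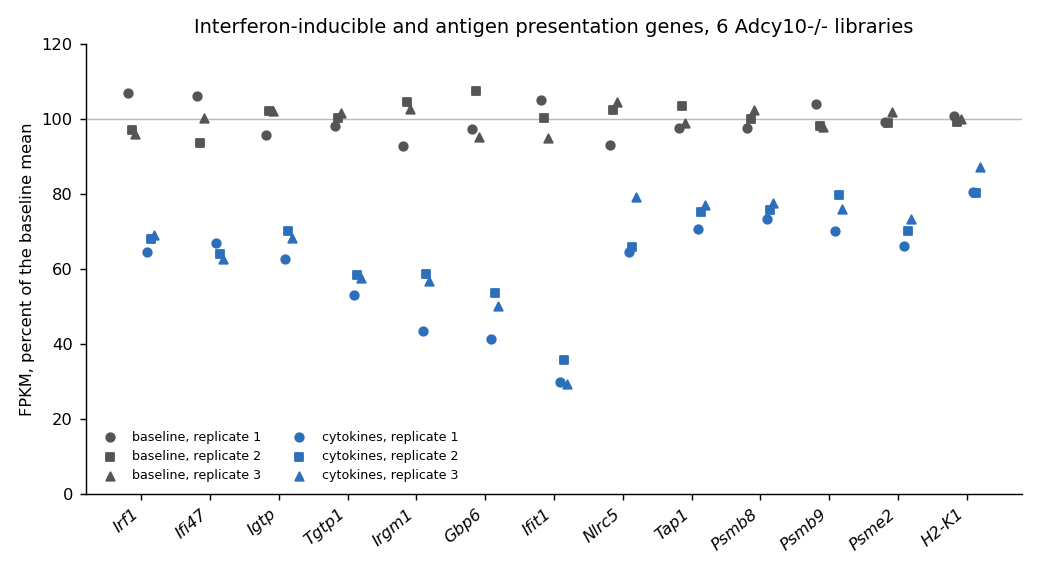
FPKM of 13 interferon-inducible and antigen presentation genes in each Adcy10-/- library, as a percent of the gene's baseline mean (horizontal line at 100), with the axis from 0. Grey symbols are baseline and blue symbols cytokine libraries, and shapes give the replicate number. In every gene shown the 3 cytokine libraries lie under the 3 baseline libraries, with the widest gap in Ifit1. The 13 genes were picked from those given in the text as lower, so this separation was largely set by the choice. Groups did not overlap in 21.5% of all genes tested. Not called, and not shown, were 28 of the 46 interferon-inducible and 5 of the 16 antigen presentation genes tested.

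Ifit1, an antiviral RNA-binding protein gene, was at 3.55, 3.38 and 3.21 FPKM and 1.01, 1.21 and 0.99 FPKM (log2 change -1.08, SE 0.18, adjusted p = 0.00591). The letters GAAA, any 2 bases, GAAA, the core of the interferon response element, were searched on both strands of the same promoter windows. They stood in 11 of 17 windows (64.7%) of the interferon-inducible genes that fell, in 21 of 43 windows (48.8%) of all those tested, in 9.76% of windows of all genes that fell, in 4.0% of those that rose and in 2.77% of the windows of all genes tested. The antigen presentation genes that fell held them in 1 of 11 windows (9.09%). Windows were found for 14 of the 18 interferon-inducible genes that fell. The windows of all genes that fell include those 17 of the interferon list. Of the windows of called genes, 0 had this motif overlapping a TTCNNNGAA match. The list was drawn up by interferon response, so the share is a description of the list. Ifit1 shared the most copies among the members that fell and had a window, 2, with Irgm1 and had the smaller p. Its copies are shown in capitals as they read on the plus strand at chr19:34640639-34640888 (GRCm38.p6), which is the reverse complement of the letters searched.
Ifit1: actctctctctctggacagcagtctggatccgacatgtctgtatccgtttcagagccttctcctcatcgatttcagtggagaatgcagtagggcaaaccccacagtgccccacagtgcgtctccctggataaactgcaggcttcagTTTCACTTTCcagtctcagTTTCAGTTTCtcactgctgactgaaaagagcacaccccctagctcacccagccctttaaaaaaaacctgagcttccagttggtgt
The copies begin 104 and 85 bases before the start.

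Of the genes that make, transport and present peptides on MHC class I, 11 of 16 tested fell, by small amounts. All 16 tested members of the antigen presentation list had log2 changes under 0 (median -0.28), and 13 passed with the block. Of all genes tested 42.2% lay above 0. Tap1, a subunit of the peptide transporter, was at 102, 109 and 104 FPKM at baseline and 74.1, 79 and 80.9 FPKM with cytokines (log2 change -0.43, SE 0.06, adjusted p = 0.00339). Nlrc5, the transactivator of class I genes, fell from 18.3, 20.2 and 20.6 FPKM to 12.7, 13 and 15.6 FPKM (adjusted p = 0.0138), H2-K1, a class I heavy chain, from 1079.7, 1062 and 1072 FPKM to 861, 859.8 and 935 FPKM (adjusted p = 0.00649) and B2m, the light chain, from 2348, 2164 and 2184 FPKM to 1940.0, 1961 and 1825 FPKM (adjusted p = 0.0280). B2m lost the call without any 1 library but baseline 2 (adjusted p up to 0.120) and Nlrc5 lost the call without baseline 3, cytokines 1 or cytokines 2 (adjusted p up to 0.0663). H2 class I genes are close copies of each other and their separate values are uncertain. B cell and dendritic cell marker sums, given above, were also lower with cytokines in each number pair. Of the dendritic cell list only H2-Aa, H2-Ab1 and Cd74 were tested. Among its members under the filter, Zbtb46 and Xcr1 were lower in each pair and Itgax was lower in none. Itgax was at 0.165, 0.2866 and 0.2248 FPKM at baseline and 0.2897, 0.3123 and 0.2253 FPKM with cytokines. Flt3 was at 0.0858, 0.116 and 0.183 FPKM and 0.0674, 0.219 and 0.34 FPKM.

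Of 40 proteasome subunits tested 5 fell and 0 rose, and the 5 were the interferon-inducible ones. The catalytic subunits Psmb8 and Psmb9 fell from 380.2, 390.3 and 399 to 286, 295 and 303 FPKM and from 75.8, 71.7 and 71.5 to 51.2, 58.1 and 55.5 FPKM, with adjusted p of 0.00161 and 0.00145. The activator chains Psme1 and Psme2 fell by 0.33 and 0.52 on the log2 scale (SE 0.05 and 0.08), and Psmb10 by 0.23. Psmb10 lost the call without any 1 library but baseline 2 (adjusted p up to 0.166). The list median was 0.00 at 2 decimals (-0.003).

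Of 11 TNF family ligands tested 4 fell. Lta, lymphotoxin α, was at 73.2, 89.7 and 89.3 FPKM at baseline and 27.3, 42.8 and 36.1 FPKM with cytokines (log2 change -1.24, SE 0.14, adjusted p = 5.87e-04). Tnfsf11, the gene of RANKL, was at 15.4, 13.1 and 12.8 FPKM and 3.12, 4.34 and 4.79 FPKM (a change of -1.55 in log2, SE 0.17, adjusted p = 5.87e-04), and Tnfsf4, the gene of OX40L, at 3.26, 2.04 and 2.77 FPKM and 0.949, 0.925 and 1.01 FPKM (adjusted p = 0.00245). Fasl was the fourth, 0 rose, and the median log2 change was -0.40 (with the block 7 fell and 1 rose). Tnf itself passed with the block only, at 12.3, 12.4 and 13 FPKM and 8.0, 10.2 and 9.88 FPKM (adjusted p = 0.0823 and 0.0482). Among 17 TNF receptors tested Tnfrsf26, a decoy receptor, rose (adjusted p = 0.0429) and Tnfrsf9, the gene of 4-1BB, fell from 173, 155 and 164 FPKM to 108, 124 and 127 FPKM (adjusted p = 0.0131), and with the block 4 rose and 3 fell. Without the block 11.8% of the TNF receptors were called, against 4.37% of all genes tested. Among 30 apoptosis regulators 1 rose, Casp6, and 5 fell, among them Bcl2a1b and Bcl2a1d, near-identical copies of a BCL2 family gene, with log2 changes of -0.86 and -0.75 (2 and 8 in the list with the block). Tnfrsf26 lost the call without any 1 library (adjusted p up to 0.156) and Bcl2a1d lost the call without any 1 library but cytokines 2 (adjusted p up to 0.128). Tnfrsf9 lost the call without baseline 1, baseline 3 or cytokines 1 (adjusted p up to 0.0608).

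Genes that report recent T cell activation numbered 30 among those tested, of which 6 fell and 1 rose (14 and 4 with the block), with a median log2 change of -0.24. Egr3 was at 19.9, 18.8 and 20.9 FPKM and 8.76, 11 and 13 FPKM (log2 change -0.82, SE 0.12, adjusted p = 0.00213), Nr4a3, an orphan nuclear receptor, at 26.5, 34.4 and 43 FPKM and 11, 14.8 and 23 FPKM (adjusted p = 0.0280), and Atf3 at 7.64, 9.62 and 9.86 FPKM and 3.59, 5.17 and 4.9 FPKM (adjusted p = 0.00699). Fosb, an AP-1 member, fell from a mean of 3.12 to 1.11 FPKM, and Cd69, an early activation antigen, from 110.3 to 86.4 FPKM. Ier3 was the member that rose (adjusted p = 0.0236). Ier3 lost the call without any 1 library (adjusted p up to 0.0904) and Cd69 lost the call without any 1 library but baseline 2 or cytokines 2 (adjusted p up to 0.129). Fosb lost the call without baseline 1, cytokines 2 or cytokines 3 (adjusted p up to 0.0602) and Nr4a3 lost the call without any 1 library but baseline 1 or cytokines 3 (adjusted p up to 0.116).

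Inhibitory receptors moved in both directions. Tigit, an inhibitory receptor for CD155, was at 21.3, 22.7 and 23.3 FPKM at baseline and at 47.3, 50.4 and 50.3 FPKM with cytokines, a log2 change of 1.10 (SE 0.08, adjusted p = 4.59e-05). Cd226, the activating receptor for the same ligand, fell from 8.13, 7.08 and 7.98 FPKM to 2.67, 2.9 and 2.25 FPKM (log2 change -1.28, SE 0.09, adjusted p = 3.96e-05). In both genes the replicates were close and the groups far apart. Ctla4 rose from 62.9, 84.3 and 68.9 FPKM to 105, 138 and 102 FPKM (adjusted p = 0.0174), Lag3 from 96.4 to 123 FPKM in the mean, and Cd160 fell from 3.29, 2.37 and 2.55 FPKM to 0.968, 0.912 and 1.01 FPKM (adjusted p = 5.87e-04). Lag3 lost the call without baseline 1, baseline 3 or cytokines 1 (adjusted p up to 0.0702) and Ctla4 lost the call without baseline 1, baseline 3 or cytokines 2 (adjusted p up to 0.0808). Foxp3, the factor of regulatory T cells, was at 15.2, 18 and 18.7 FPKM and 23.1, 20.8 and 24.1 FPKM and passed with the block only (adjusted p = 0.169 and 0.00919). Of 21 members of the regulatory list tested 4 rose and 2 fell (10 and 4 with the block), with a median log2 change of 0.19.

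**Figure D4:**
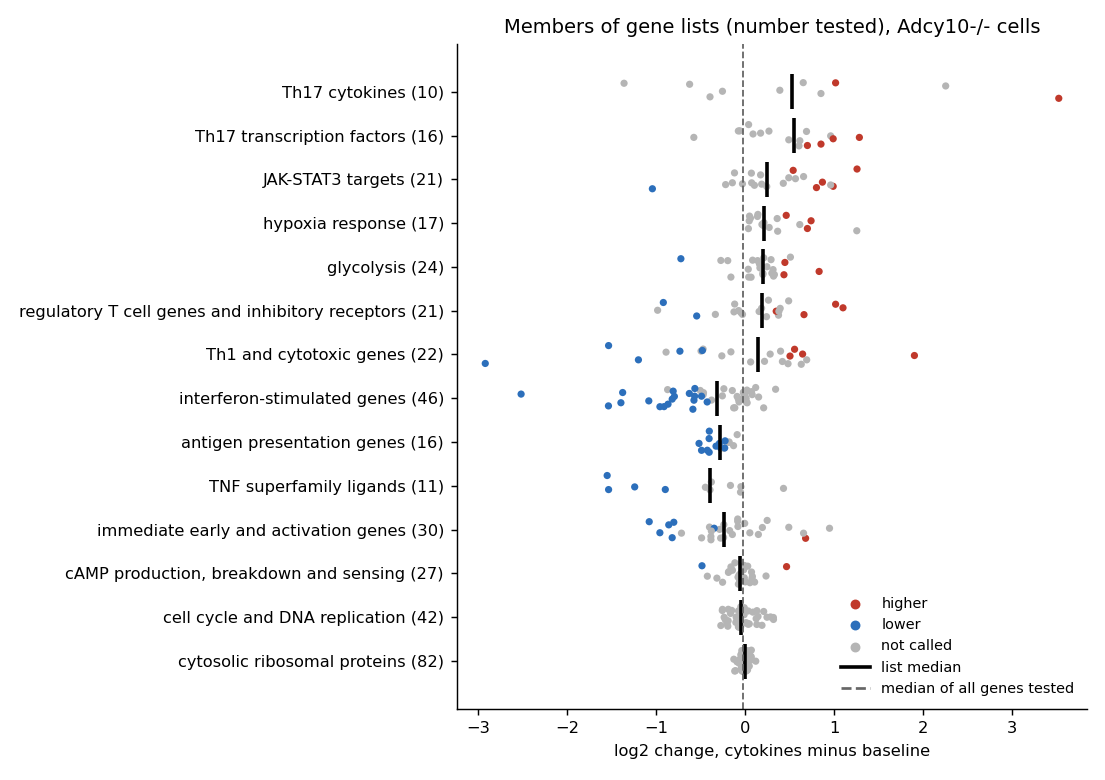
Log2 change with cytokines of each tested member of 14 gene lists in Adcy10-/- cells, with the number tested beside each name. Red members were higher and blue members lower at an adjusted p under 0.05, thick ticks are list medians and the dashed line is the median of all 9901 genes (-0.02). Antigen presentation genes lie wholly left of 0, hypoxia genes wholly right of 0, and ribosomal protein genes in a narrow band around 0. Of all genes tested 42.2% lay above 0.

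Of 27 tested genes of cAMP handling, the pathway of the deleted enzyme, from a list of 45, 1 rose and 1 fell (7.41% called, against 4.37% of all genes), and the median log2 change was -0.06. Both called genes encode prostaglandin E2 receptors that raise cAMP: Ptger2 was at 2.13, 2.39 and 2.12 FPKM and 3.81, 3.52 and 3.03 FPKM (a change of 0.47 in log2, SE 0.10, adjusted p = 0.0284), and Ptger4 at 13.8, 11.7 and 14.3 FPKM and 9.82, 8.25 and 9.51 FPKM (log2 change -0.49, SE 0.10, adjusted p = 0.0154). Ptger2 lost the call without any 1 library but baseline 2 or cytokines 3 (adjusted p up to 0.121) and Ptger4 lost the call without baseline 1, baseline 3 or cytokines 2 (adjusted p up to 0.0730). The membrane cyclases Adcy7, Adcy6 and Adcy3 passed in neither fit, with log2 changes of -0.25, 0.23 and 0.03. Adcy7 was at 11.1, 8.65 and 10.3 FPKM and 7.9, 7.74 and 9.05 FPKM, and Adcy1, Adcy2, Adcy4, Adcy5, Adcy8 and Adcy9 all lay under the filter. Pde3b, a phosphodiesterase, passed with the block only, at 12.2, 10 and 11.4 FPKM and 8.32, 7.49 and 8.34 FPKM (adjusted p = 0.116 and 0.00625).

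Of 20 genes known as targets of cAMP and CREB, 1 rose and 4 fell (5 and 8 with the block). The fallen members include Gadd45b, a stress sensor, at 85.7, 72.1 and 86.1 FPKM and 46.6, 46.7 and 49.7 FPKM (a change of -0.75 in log2, SE 0.08, adjusted p = 5.67e-04), and Nr4a3 and Fosb, which stand in the activation list as well, and the 1 that rose was Fosl2. Crem, the cAMP-responsive modulator, was at 14.4, 17.4 and 17.4 FPKM and 17, 24.9 and 19.4 FPKM and passed with the block only (adjusted p = 0.307 and 0.0419). The palindrome TGACGTCA, the cAMP response element, stood in 0.444% of windows of genes that rose, 1.46% of those of genes that fell and 2.84% of those of all genes tested. The AP-1 letters TGANTCA, searched on both strands, stood in 5.33%, 8.29% and 4.0% of the same windows.

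Of 24 glycolysis genes tested 3 rose and 1 fell (12 and 3 with the block), with a median log2 change of 0.20. Pkm, pyruvate kinase, was at 840.1, 1059 and 1025 FPKM at baseline and 1294, 1337 and 1337 FPKM with cytokines (a change of 0.45 in log2, SE 0.10, adjusted p = 0.0331), and Slc16a3, the lactate exporter MCT4, at 12.4, 17.1 and 14.7 FPKM and 24, 30.3 and 26.7 FPKM (adjusted p = 0.0111). The enolase genes went opposite ways, Eno2 from a mean of 0.896 to 1.56 FPKM and Eno3 from 28.8, 22.3 and 26 FPKM to 15.2, 14.6 and 15.5 FPKM (adjusted p = 0.00450). All 17 hypoxia response genes tested had log2 changes above 0 (median 0.21), against 42.2% of all genes tested. Of the 17, 3 passed, Hif1a, Bnip3 and Ddit4 (9 with the block). Ddit4, an mTOR inhibitor, was at 18.2, 20.5 and 17.7 FPKM and 27.2, 26.6 and 25 FPKM (adjusted p = 0.00454), and Egln3, an oxygen sensor, passed with the block only, at 3.58, 10.9 and 8.26 FPKM and 15, 21 and 18.6 FPKM (adjusted p = 0.0562 and 0.00237). Eno2 and Pkm lost the call without any 1 library but baseline 2 (adjusted p up to 0.133 and 0.127) and Slc16a3 lost the call without baseline 1 (adjusted p up to 0.0509). Bnip3 lost the call without any 1 library (adjusted p up to 0.164).

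Housekeeping machinery gave few calls. Of 82 cytosolic ribosomal protein genes 0 passed in either fit and the log2 changes lay between -0.13 and 0.12, with Rpl34 (-0.13) and Rps27l (0.12) having the smallest p. No gene passed among 76 mitochondrial ribosomal proteins, 79 respiratory chain genes, 59 translation factors, 29 genes of cholesterol and fatty acid synthesis or 29 of the integrated stress response. With the block these 5 lists gave 1 higher and 3 lower, 2 and 0, 0 and 1, 3 and 1, and 2 and 3. The smallest p of the 5 lists without the block, with the adjusted p in both fits, were those of Mrps6 (0.0504, and 0.0119 with the block) and Mrpl14 (0.112 and 0.0209), Ndufb11 (0.103 and 0.00692) and Ndufv3 (0.118 and 0.0181), and Eif4enif1 (0.0598 and 0.00456) and Eif4a2 (0.222 and 0.0943). For lipid synthesis they were Elovl6 (0.139 and 0.0379) and Srebf1 (0.148 and 0.0708), and for the stress response Phgdh, of serine synthesis (0.0916 and 0.00139), and Ddit3, the gene of CHOP (0.0964 and 0.0140). Among 42 cell cycle genes 0 passed, but 3 rose and 12 fell with the block, among the latter Pcna, the replication clamp, at 374, 405 and 400.3 FPKM and 312, 371 and 343 FPKM (adjusted p = 0.125 and 0.0107), and Mcm7 (0.227 and 0.0197). In the unfolded protein response list 2 of 28 (7.14%, against 4.37% of all genes tested) rose, and with the block 4 rose and 1 fell. The 2 were Xbp1 (adjusted p = 0.0312) and Atf6 (adjusted p = 0.0337). Xbp1 lost the call without any 1 library but cytokines 2 (adjusted p up to 0.124) and Atf6 lost the call without any 1 library but baseline 2 (adjusted p up to 0.131).

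Genes of the naive state, of homing and of T cell receptor signaling split between directions. Dapl1, a marker of naive T cells, fell from 161, 70.6 and 96.5 FPKM to 28.1, 21.3 and 18.9 FPKM (a change of -2.15 in log2, SE 0.35, adjusted p = 0.00580) and Foxp1, a quiescence factor, by 0.34 on the log2 scale, while Igfbp4 and Satb1, in the same list of 23, rose (4 higher and 4 lower with the block). Of 25 homing and adhesion genes Cxcr3 rose and the integrin chains Itga4 and Itgal fell (log2 changes -0.51 and -0.33). With the block this list gave 4 higher and 6 lower. Ccr6, the chemokine receptor of Th17 cells, was lower in each number pair and passed in neither fit, at 1.09, 1.22 and 2.01 FPKM and 0.625, 0.758 and 1.46 FPKM (adjusted p = 0.433), and Ccl20, its ligand, lay under the filter. Foxp1 and Itga4 lost the call without any 1 library but baseline 2 or cytokines 1 (adjusted p up to 0.0736 and 0.0820) and Itgal lost the call without any 1 library but baseline 2 or cytokines 3 (adjusted p up to 0.0876).

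Among 30 T cell receptor signaling genes 2 rose and 4 fell (5 and 10 with the block). Cd6, a costimulatory receptor, was at 196, 197 and 188 FPKM and 243, 250.1 and 246 FPKM (a change of 0.35 in log2, SE 0.05, adjusted p = 0.00182), and Cd5, an inhibitor of receptor signals, rose by 0.34 on the log2 scale. Cd4 fell from 179, 144 and 163 FPKM to 122, 121 and 122 FPKM (log2 change -0.40, SE 0.09, adjusted p = 0.0248). Ubash3a, a phosphatase-like inhibitor, fell from 28.9, 27.2 and 28.1 FPKM to 19.9, 19.4 and 21.4 FPKM (adjusted p = 5.87e-04) and Sh2d1a, the adaptor SAP, by 0.66. Cd4 and Tnip2 lost the call without any 1 library but baseline 2 (adjusted p up to 0.102 and 0.140) and Nfkb1 lost the call without any 1 library but baseline 2 or cytokines 3 (adjusted p up to 0.136). Cd5 lost the call without any 1 library but baseline 1 (adjusted p up to 0.123). In the NF-κB list of 27, Malt1 and Tnip2 rose and Nfkb1 fell from 146 to 117 FPKM, and in the TGF-β list of 17 Smad3, a signal-carrying factor, rose from 11.2, 13.2 and 13.3 FPKM to 18.7, 17.8 and 19.9 FPKM (adjusted p = 0.00184). With the block the NF-κB list gave 5 higher and 3 lower and the TGF-β list 4 higher and 2 lower. Without the block 11.1% of the NF-κB list and 5.88% of the TGF-β list were called, against 4.37% of all genes tested.

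Among the remaining genes with the largest falls were Lad1, at 45.3, 31.4 and 44.1 FPKM and 12.3, 12.3 and 14.5 FPKM (log2 change -1.54, SE 0.12, adjusted p = 4.59e-05), Adh1, an alcohol dehydrogenase (log2 change -1.52), Stap1, a signaling adaptor (log2 change -1.36), and Penk, the precursor of enkephalins (log2 change -1.20). Stk39, a kinase of ion transport, had 1 of the 8 smallest p, at 24.4, 25.4 and 26.7 FPKM and 12.4, 14.2 and 13 FPKM (adjusted p = 2.23e-05). In absolute terms Chmp4b, a membrane scission protein, gained 145 FPKM, Fxyd5 gained 131 FPKM and Uba1, the ubiquitin activating enzyme, gained 75.4 FPKM in the mean. Lsp1, an actin-binding protein, fell from 406 to 248 FPKM. Fxyd5 lost the call without any 1 library (adjusted p up to 0.141) and Lsp1 lost the call without any 1 library but baseline 2 (adjusted p up to 0.0741). Penk lost the call without any 1 library but baseline 1 or cytokines 2 (adjusted p up to 0.107).

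The same genes were set beside WT cells from the same fit, which called 493 genes there (4.98%). Of the 433 genes called in Adcy10-/- cells, 330 were also called in WT in the same direction, and all 433 had WT changes of the same sign, against 75.0% of all 9901 genes. The difference between the 2 genotypes' changes (the interaction) passed for 0 of 9901 genes by limma, with or without the block, and 105 genes had an unadjusted p under 0.05. For Il21 the log2 change was 3.53 in Adcy10-/- and 3.43 in WT cells, a difference of 0.10 (95% interval -1.43 to 1.62). For Eomes the changes were -2.92 and -2.85 (difference -0.07, interval -0.57 to 0.43). For Il17a and Il22 the differences were -0.27 (-2.11 to 1.56) and -0.66 (-2.49 to 1.18). The intervals of Il21, Il17a and Il22 hold differences of 2-fold in either direction, that of Eomes does not, and the p-values do not show that the genotypes respond alike.

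**Figure D5:**
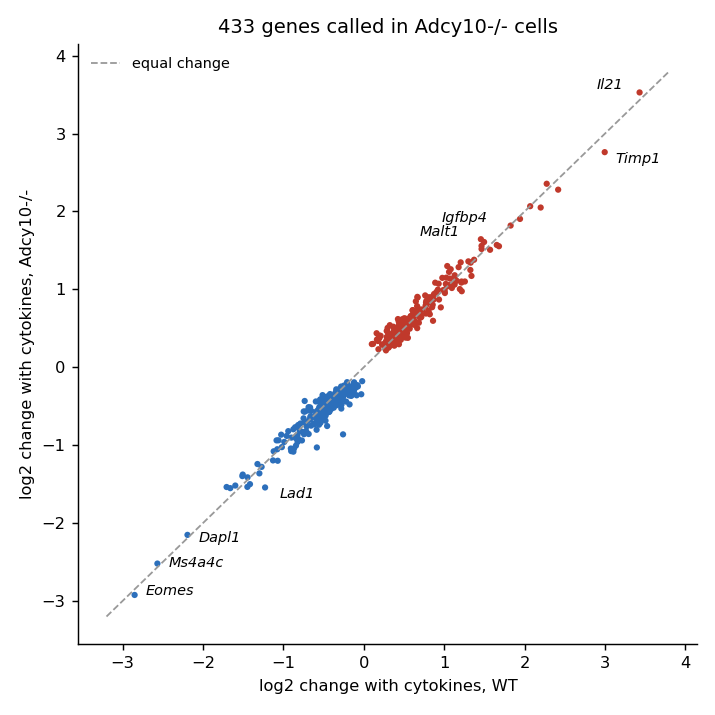
Log2 change with cytokines in WT cells (horizontal axis) and in Adcy10-/- cells (vertical axis) of the 433 genes called in Adcy10-/- cells, 217 higher in red and 216 lower in blue. The dashed line marks equal change. All points share their sign in both genotypes. The genes were chosen by their Adcy10-/- change, so their spread about the line is a description.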

How the data were processed

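RNA was polyA RNA from CD4 T cells. Per the submitters' processing notes the authors used STAR 2.4.0f1, SAMtools 0.1.19, Cufflinks and HTSeq with build mm9. Which tool made the deposited values, and whether strand was used, is not given in the sources used here. The authors deposited 1 FPKM value for each of 24488 entries per library, and per the file headers the column is FPKM. Entries with the same gene name (258 names) were summed. Whole reads could not be recovered from these values, so depth is unknown and no count test was run.

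Values were taken as log2(FPKM + 1), which understates changes of low genes. All 12 libraries entered 1 limma 3.58.1 fit (R 4.3.3) with 4 group means, a trended prior and Benjamini-Hochberg adjustment at 0.05 over 9901 genes (at least 1 FPKM in 3 of 6 Adcy10-/- libraries). The fit without the block was run on simulated libraries with independent noise, with changes planted only in genes above a set level. In the data libraries with the same replicate number deviated together, so the simulation does not cover that pairing. SDs are over 3 libraries on the FPKM scale.

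Residuals of Adcy10-/- libraries with the same replicate number in the labels correlated at 0.536, 0.397 and 0.463, and those of other pairs at -0.384 to 0.0467. Each group was centred on its own mean, so the values of other pairs had to be low where those of the same number were high. They add no separate support. From the same-number values the numbers were taken to pair the libraries, in the same data that the fit with the block uses. The labels do not say what a number marks.

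The comparison, the gene lists and the rule for named genes were chosen with earlier results of these data known. The rule names a fixed panel. It adds the 15 largest changes each way (mean of at least 5 FPKM), up to 4 called members of each list or the 2 with the smallest p, the 8 genes that gained or lost most FPKM, genes crossing from under 1 to 2 FPKM, the 8 smallest p and the genes whose promoters are printed. Some genes that the rule or the lists would name are not reported here and were left out of the list counts. Further list members were chosen after their values were seen. Promoters came from RefSeq (GRCm38.p6).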

Additional observations from a re-analysis of the deposited data

How the results depend on the processing

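In Adcy10-/- cells the 433 calls became 1218 with the replicate block within genotype, 1085 with the block across genotypes and 1100 with the block in Adcy10-/- libraries alone. They became 199 to 408 without 1 Adcy10-/- library at a time and 107 without both libraries numbered 1. In WT cells the 493 calls became 1580 with the block within genotype and 1484 with it across genotypes, 381 to 537 without 1 Adcy10-/- library at a time, and 503 without both Adcy10-/- libraries numbered 1, which enter the shared estimate of the spread. The interaction gave 0 to 1 gene without 1 library and 1 without both numbered 1. Other pseudocounts, filters, scalings and priors kept the Adcy10-/- count within 1.5 times, and the widest of these was 320 genes without the filter. The replicate block within genotype kept the call of each of the 110 named genes that passed, and the named genes that it added are given with both values in the text, so that it changed no other call. Of the 110, 65 kept their call without each of the 6 libraries in turn. Without the filter 80 of the 110 kept it, and 93 kept it with the 6 Adcy10-/- libraries fitted alone, where 340 genes passed. Only 51 kept it without both libraries numbered 1. Log2 changes of 3 genes that did not pass turned sign: without 1 library Il6ra lay between -0.007 and 0.327, Tbx21 between -0.484 and 0.06 and Adcy3 between -0.054 and 0.092, and Adcy3 was at -0.039 without both libraries numbered 1, with or without the block. The cause of these shifts was not tested. With the block and without both libraries numbered 1, a fit chosen after seeing the data, 538 genes passed. Depth could not be known from FPKM, so the counting error of low genes has no estimate here.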

Other observations

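A few genes not described above passed in the fit with the block only. Myb, a transcription factor of lymphoid progenitors, was at 25.1, 13.2 and 15.9 FPKM at baseline and 8.45, 7.21 and 7.64 FPKM with cytokines (limma adjusted p = 0.0541, and 0.00396 with the block). Tnfrsf8, the gene of the activation antigen CD30, was at 1.77, 7.45 and 8.57 FPKM and 12.3, 14 and 18.4 FPKM (0.165 and 0.00919), and Nfil3, a repressor that acts in several T cell lineages, at 5.67, 14.4 and 11.9 FPKM and 19.9, 24.4 and 23.8 FPKM (0.0661 and 0.00323). Baseline replicate 1 was the highest baseline library for Myb and the lowest for Tnfrsf8 and Nfil3. Fcer2a, a B cell surface gene, was at 5.79, 14.8 and 23.9 FPKM and 2.05, 7.65 and 10.9 FPKM (0.809 and 0.00971). It is a member of the B cell marker list and a part of the sums given in the report, so it is no separate observation. Of the 8 members of that list tested, 1 was higher and 3 were lower with the block, and 2 had log2 changes above 0. Myb, Tnfrsf8, Nfil3 and Fcer2a were chosen after their values were seen.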
